A study of Caenorhabditis elegans with 6 samples.

Results

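miR-49 and miR-83 are 2 of the 108 miRNAs with spots on a Caenorhabditis elegans miRNA array. They were chosen by name, as the spots whose listed target is miR-49 or miR-83. That is a rule that uses no measured value, although the pair was picked with earlier results of these data known. Each was printed as 4 spots, which gave 48 spot readings over 6 arrays. Both were bright enough to be among the 94 miRNAs tested.

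Adults of fem-2(b245ts) were compared with adults of fem-3(q20ts). Both are temperature-sensitive mutants of the sex determination pathway, and both were grown at 25 °C and collected 24 h after late L4, as adults of day 1. At this temperature the loss-of-function allele fem-2(b245ts) is known to feminise the germ line, which forms oocytes but not sperm. The gain-of-function allele fem-3(q20ts) is known to do the opposite, so that the germ line forms sperm but not oocytes. Each genotype had 2 biological replicates, and replicate 1 was hybridised on 2 technical arrays and replicate 2 on 1 array. The RNA came from populations of whole animals, soma and gonad together, so that fewer cells of a type and less RNA per cell cannot be told apart. A wild-type group was not analysed here. The labels call the replicates biological but do not say what was separate, so p-values measure the spread between these samples only, which may be partly technical.

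miR-49 and miR-83 are counted with the miR-29 family of vertebrates, because they share with it the seed, the stretch near the 5′ end of a miRNA that pairs with target mRNAs. In mammals, miR-29 is known for repressing mRNAs of collagens and other matrix proteins. In C. elegans, miR-83 is known to act together with miR-34 in the migration of the distal tip cells, which lead the growing gonad arms. The genes lie apart. In the WBcel235 annotation of RefSeq, mir-49 (CELE_F19C6.6) is on chromosome X and mir-83 (CELE_C06A6.6) on chromosome IV, and neither lies inside another annotated gene. Among the measured miRNAs matched to that annotation, the nearest genes are those of miR-237 and miR-251 around mir-49, and those of miR-228 and miR-246 around mir-83.

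Both members were measured well above the array background. Spots named Buffer set that background, and a spot counted as above it when it exceeded the 95th percentile of the 32 Buffer spots of its array. That level was 127 and 114 on the arrays of fem-2(b245ts) replicate 1 and 21.5 on that of replicate 2, against 36.5, 41.5 and 19.0 on the same arrays of fem-3(q20ts). It was thus highest in replicate 1 of fem-2(b245ts). With the median Buffer signal of each array subtracted, the log2 difference between the genotypes was -0.09 for miR-49 and -0.14 for miR-83, beside -0.08 and -0.13 without that step. Without that subtraction, all 24 spot readings of miR-49 and all 24 of miR-83 exceeded the 95th percentile of the Buffer spots of their array. The array mean of miR-49 was 3.80 to 22.4 times that level, and the array mean of miR-83 was 8.39 to 37.3 times that level. In the scanner files, which were used for the 4 arrays of replicate 1, all 16 readings of each member were marked as detected and 0 were saturated. Their signal-to-noise scores ran from 15.2 to 58.5 for miR-49 and from 17.8 to 140.8 for miR-83.

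As a check of the genotype labels, the oocyte-associated miRNAs were read first. All 7 miRNAs from miR-35 to miR-41, known from oocytes and embryos, were higher in fem-2(b245ts). The log2 differences were 3.90 for miR-35, 4.50 for miR-36 and 5.03 for miR-39, which exceeded the Buffer level on all arrays. For miR-37, miR-38, miR-40 and miR-41 only the direction is given, since they exceeded the Buffer level on 1, 2, 1 and 0 of the 3 fem-3(q20ts) arrays. In all, 8 of the 94 tested miRNAs (8.51%) passed the threshold of an adjusted p of 0.05 in limma, 7 higher and 1 lower in fem-2(b245ts). At an unadjusted limma p under the same value there were 10.

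miR-49 was at a similar level in both genotypes. Its intensity, the deposited value scaled by the authors to one total per array and averaged over 4 spots, was 597 and 432 on the technical arrays of fem-2(b245ts) replicate 1 and 322 on the array of replicate 2. In fem-3(q20ts) it was 471 and 381 on the arrays of replicate 1 and 426 on that of replicate 2. The fem-2(b245ts) arrays held both the highest and the lowest of the 6 values, and the fem-3(q20ts) values lay between them. Over biological replicates, the fem-2(b245ts) mean of miR-49 was 418 ± 136 and the fem-3(q20ts) mean was 426 ± 0.0681 (SD over 2 replicates each). The close match of the fem-3(q20ts) replicates is that of 2 values only, since the technical arrays behind the first of them lay at 471 and 381.

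miR-83 also overlapped between the genotypes, and the replicates were further apart than the genotypes. Its intensity was 1064 and 1475 on the arrays of fem-2(b245ts) replicate 1 and 555 on that of replicate 2. In fem-3(q20ts) it was 1081 and 1547 on the arrays of replicate 1 and 633 on that of replicate 2. On each pair of arrays with the same replicate and technical number, fem-3(q20ts) was slightly the higher, while replicate 2 was the lowest array of both genotypes. Over biological replicates, the fem-2(b245ts) mean of miR-83 was 912 ± 505 and the fem-3(q20ts) mean was 973 ± 481 (SD over 2 replicates each).

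**Figure D1:**
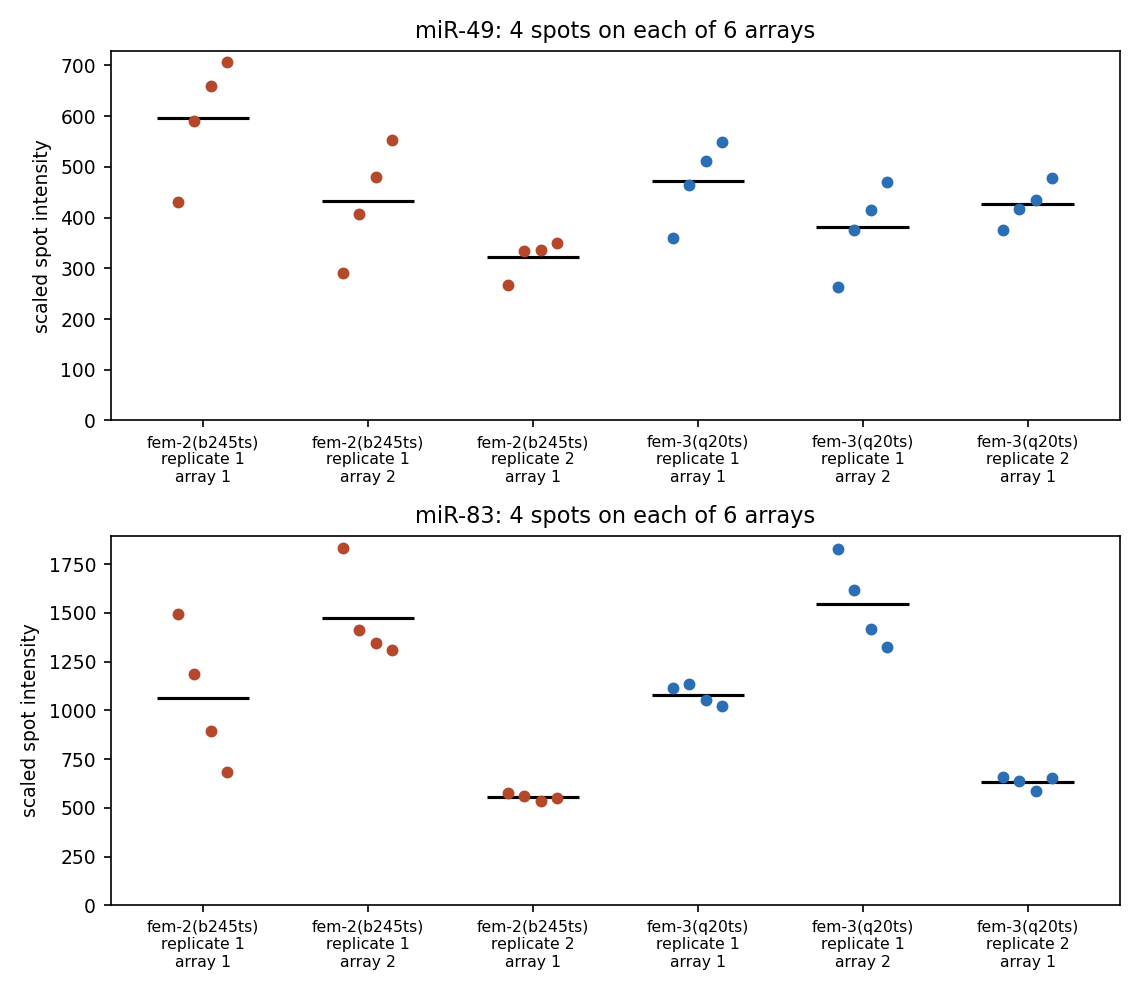
Scaled intensity (linear axis from 0) of the 4 spots of miR-49 (top) and miR-83 (bottom) on each of the 6 arrays, in order of spot number from left to right, with fem-2(b245ts) in red and fem-3(q20ts) in blue. Points are spots and black lines are array means. The genotypes overlap for both miRNAs, miR-83 is lowest on both arrays of replicate 2 (555 and 633), and the miR-49 spots climb in that order on all 6 arrays.

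Neither member passed the test between the genotypes. The log2 difference of miR-49, fem-2(b245ts) minus fem-3(q20ts), was -0.08 (SE 0.35; limma adjusted p = 0.909), a ratio of 0.948. That of miR-83 was -0.13 (SE 0.56; limma adjusted p = 0.909), a ratio of 0.912. So 0 of the 2 members were called, beside the 8.51% of all tested miRNAs. The two-sided exact permutation p was 1 for miR-49 and 0.667 for miR-83, where the smallest p that 4 samples allow is 0.333.

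For the authors' scaling and this fit, the intervals show how large a difference could have gone unseen. Other scalings, given below, moved the differences themselves. The 95% interval of miR-49 ran from -0.97 to 0.82 on the log2 scale, which is a ratio of 0.509 to 1.76. The interval of miR-83 ran from -1.57 to 1.30, a ratio of 0.337 to 2.47. These data therefore do not show that either level was equal in the genotypes. They place both differences below the 3.90 of miR-35, the smallest among the oocyte-associated miRNAs.

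Over all samples, both members lay in the middle of the tested miRNAs. Of all 94 differences, 50 were below that of miR-49 and 47 were below that of miR-83, and the median was -0.14. Relative to that median, miR-49 was at 0.06 and miR-83 at 0.0023. That place rested on all 4 samples. Without fem-2(b245ts) replicate 1 the values relative to the median were -0.42 for miR-49 and -0.73 for miR-83, and without fem-2(b245ts) replicate 2 they were 0.60 and 0.80. Without fem-3(q20ts) replicate 1 they were 0.18 and 0.66, and without fem-3(q20ts) replicate 2 they were 0.035 and -0.55. The signs of the differences themselves depended on how the arrays were scaled to each other. Rescaling on the miRNAs outside miR-35 to miR-42 moved the median of all tested miRNAs by 0.33 and gave 0.25 for miR-49 and 0.19 for miR-83. Rescaling on the spike control moved the median by -0.56 and gave -0.64 and -0.69 for the same miRNAs.

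**Figure D2:**
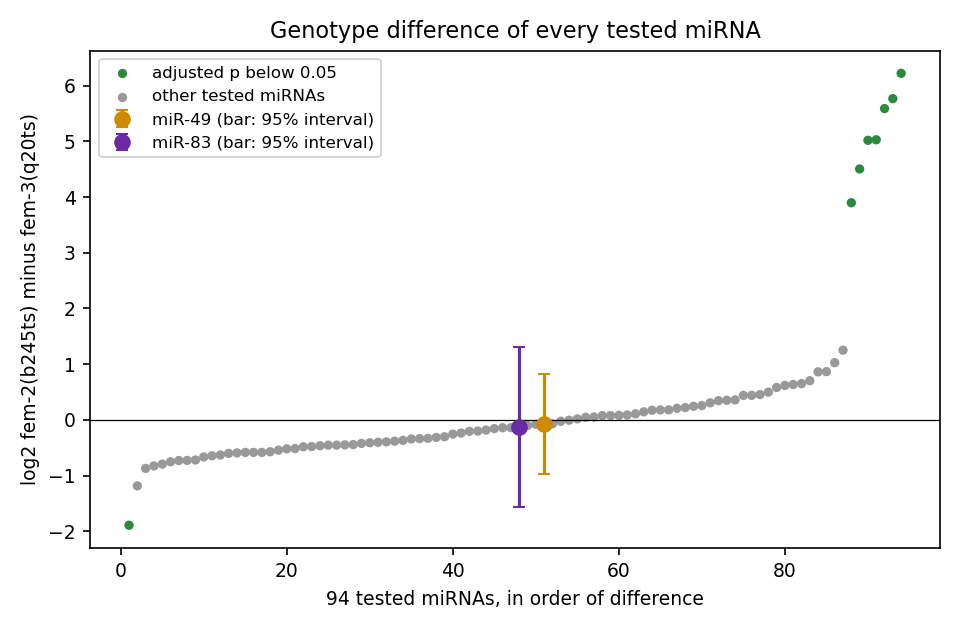
Log2 difference, fem-2(b245ts) minus fem-3(q20ts), of the 94 tested miRNAs in order of size, with miR-49 and miR-83 drawn large with their 95% intervals and the 8 miRNAs with a limma adjusted p below 0.05 in green. Both members lie near the median of -0.14, far from the 7 green points at 3.90 and above, of which miR-37, miR-38, miR-40 and miR-41 were not above the Buffer level on every fem-3(q20ts) array.

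Within replicates the direction held for miR-83 but not for miR-49, and it held for 73 of all 94 tested miRNAs. miR-83 differed by -0.08 in replicate 1 and by -0.19 in replicate 2, so that both replicates had the lower value in fem-2(b245ts). miR-49 differed by 0.25 in replicate 1 and by -0.41 in replicate 2. Leaving out fem-2(b245ts) replicate 2 turned both differences positive, to 0.24 for miR-49 and 0.44 for miR-83, and leaving out fem-3(q20ts) replicate 1 gave 0.38 for miR-83. With the replicate number as a block, which removes what the genotypes shared within a replicate, the interval of miR-83 narrowed to -0.64 to 0.37 and that of miR-49 was -0.81 to 0.66. Neither passed there (limma adjusted p = 0.614 for miR-83 and 0.817 for miR-49).

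Before scaling, the signal of replicate 1 was mostly higher in fem-3(q20ts). The background-subtracted scanner intensity of miR-49 averaged 542 and 457 on the 2 fem-2(b245ts) arrays, against 684 and 472 on the 2 fem-3(q20ts) arrays. For miR-83 these means were 966 and 1559 in fem-2(b245ts), against 1569 and 1917 in fem-3(q20ts). The authors' scaling multiplied the fem-2(b245ts) arrays by 1.10 and 0.946 and the fem-3(q20ts) arrays by 0.689 and 0.807, after which the array values of the genotypes overlapped for both miRNAs. Those of miR-49 had overlapped before scaling too.

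The 2 relatives were also compared with each other, as the log2 value of miR-49 minus that of miR-83 in each sample, which cancels any scaling factor of an array. Its size in one sample has no meaning of its own, since probes differ in brightness. It was -1.30 in replicate 1 and -0.79 in replicate 2 of fem-2(b245ts), against -1.63 and -0.57 in the same replicates of fem-3(q20ts). The values of fem-2(b245ts) lay between those of fem-3(q20ts). The difference of the differences was 0.06, with 0.33 within replicate 1 and -0.22 within replicate 2 (exact permutation test, p = 1, with 0.333 the smallest p it allows). Leaving out fem-3(q20ts) replicate 2 gave 0.58, and leaving out replicate 1 of that genotype gave -0.47. No difference between the responses of the relatives was detectable with 2 samples a genotype.

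The replicates were then compared in the blocked fit, a comparison added after the values were seen. miR-83 was higher in replicate 1 of both genotypes, by 1.14 on the log2 scale in fem-2(b245ts) and by 1.03 in fem-3(q20ts). Its mean shift was 1.08 (SE 0.17, 95% interval 0.57 to 1.59), a ratio of 2.12. The shift did not pass over all tested miRNAs (limma adjusted p = 0.0738), where 4 of 94 (4.26%) passed, all 4 of them lower in replicate 1. Those 4, miR-253, miR-264, miR-267 and miR-272, each exceeded the Buffer level on only 1 of the 3 fem-2(b245ts) arrays. By absolute size the shift of miR-83 ranked 9 of 94. Of the miRNAs ranked above it, only miR-59 exceeded the Buffer level on all 6 arrays. Besides miR-83, only miR-59 was higher in replicate 1 by over 1 on the log2 scale in both genotypes, and the median shift of all tested miRNAs was -0.32 for fem-2(b245ts) against -0.26 for fem-3(q20ts). miR-49 was higher in replicate 1 of fem-2(b245ts) by 0.63 and differed by -0.03 in fem-3(q20ts), with a mean shift of 0.30 (SE 0.25; limma adjusted p = 0.450).

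**Figure D3:**
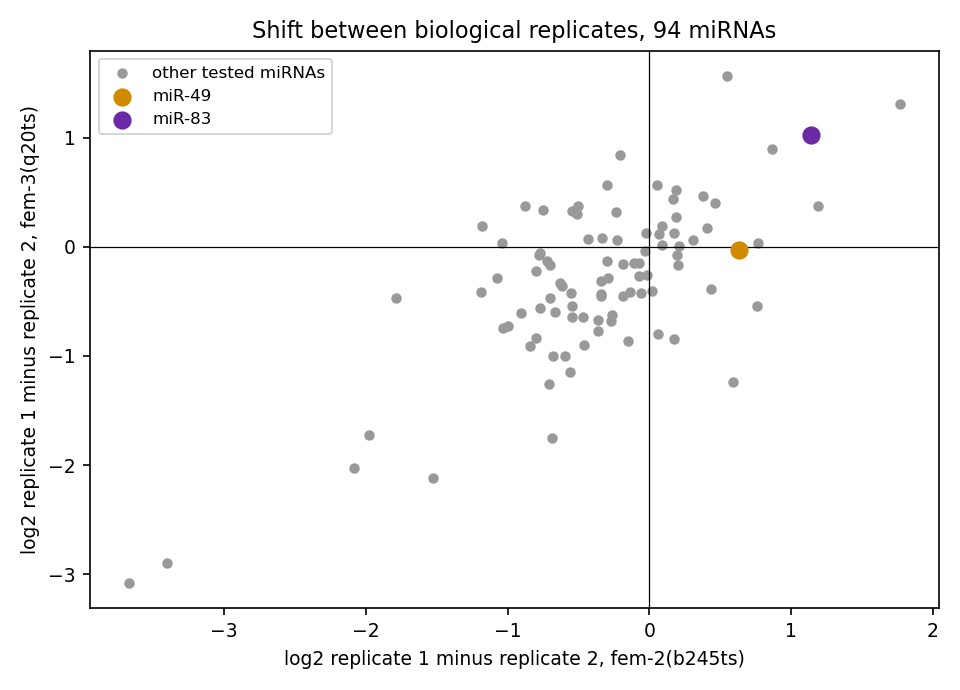
Log2 shift of each of the 94 tested miRNAs between biological replicates (replicate 1 minus replicate 2) in fem-2(b245ts), on the x axis, and in fem-3(q20ts), on the y axis. miR-83 lies at 1.14 and 1.03, at the upper right of a cloud whose medians are below 0, and miR-49 lies at 0.63 and -0.03.

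For both members, arrays of the same RNA also differed in the same direction in both genotypes. Within replicate 1, miR-83 was higher on technical array 2 than on technical array 1 by 0.52 on the log2 scale in fem-2(b245ts) and by 0.51 in fem-3(q20ts). miR-84 had like values, 0.70 in fem-2(b245ts) against 0.47 in fem-3(q20ts), while the median over all tested miRNAs was -0.04 for fem-2(b245ts) and 0.10 for fem-3(q20ts). miR-49 moved the other way, by -0.48 in fem-2(b245ts) and by -0.32 in fem-3(q20ts), and 6 of 94 miRNAs fell below -0.3 in both. A shared direction was not particular to the members, and it was not general among the tested miRNAs either. Of the 94, 31 were higher on technical array 2 in both genotypes, and miR-230, for example, differed by -0.97 in fem-2(b245ts) and by 0.61 in fem-3(q20ts). Per the file headers, spots were found automatically on technical array 1 and by hand on technical array 2 of both genotypes. The part of that step in these shifts was not tested.

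The 4 spots of a member differed in a recurring order, which was looked at after the values were seen. The spots of miR-49 increased in the order of their spot numbers on all 6 arrays, with the last spot 1.27 to 1.90 times as bright as the first. Only 3 of the 94 tested miRNAs, miR-49, miR-53 and miR-73, had their spots in the same order of intensity on all 6 arrays. For miR-83 the first spot was the brightest on 5 of 6 arrays and the last was the dimmest on 4 of 6, and the last was 0.457 to 0.996 times as bright as the first. The SD of the 4 spots of an array was at most 25.9% of their mean for miR-49 and 33.2% for miR-83. Taken spot by spot, the genotype difference of miR-49 was -0.15, -0.04, -0.04 and -0.08 from the first spot to the last, and that of miR-83 was 0.0091, -0.13, -0.14 and -0.27. For miR-49 the 4 spots gave the same sign, and for miR-83 the first spot differed from the other 3 in sign. In replicate 1 the difference of miR-83 was 0.21 at the first spot and -0.30 at the last.

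The tested miRNAs whose pattern over the 4 biological samples was most like that of each member were found by the root mean square difference of log2 values, each centred on its own mean. For miR-49 these were miR-68 (0.099), miR-56* (0.12) and miR-227 (0.17), of which miR-227 lay above Buffer on only 1 of the 3 arrays in fem-2(b245ts). For miR-83 they were miR-78 (0.11), miR-67 (0.30) and miR-59 (0.33). miR-78 had an intensity of 456 and 248 in replicates 1 and 2 of fem-2(b245ts), against 535 and 281 in those of fem-3(q20ts), the same high replicate 1 and small genotype difference (-0.20) as miR-83. The members were 0.41 apart by this measure. Among 93 miRNAs, miR-83 ranked 32 in likeness to miR-49, where the median was 0.48, and miR-49 ranked 7 in likeness to miR-83, where the median was 0.78. All 6 of these likenesses describe 4 samples and come with no test.

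miR-34, which acts with miR-83 in the gonad, did not pass either. It had intensities of 581 and 849 in replicates 1 and 2 of fem-2(b245ts), against 668 and 898 in those of fem-3(q20ts). Its log2 difference of -0.14 (SE 0.36; limma adjusted p = 0.909) was close to that of miR-83, but it was lower in replicate 1, by -0.49. Of the 6 miRNAs listed as linked to lifespan, among them miR-34 and miR-71, 0 passed the test, with 3 positive and 3 negative differences, from -0.54 for miR-246 to 0.26 for miR-239b. Of the 3 fem-2(b245ts) arrays, only 1 had miR-246 above Buffer, so that its value there is close to background. Their median was -0.02, against -0.14 over all tested miRNAs, and the split became 5 positive and 1 negative after rescaling on the miRNAs outside miR-35 to miR-42 and 0 and 6 after rescaling on the spike control.

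The other miRNAs placed on the members' chromosomes were mostly below 0, as were 54 of all 94 tested miRNAs. Only the 100 of 108 names matched to the annotation could be placed, so tested miRNAs such as miR-58 and miR-239a are in neither list. Of 22 other tested miRNAs on chromosome X, 0 passed, with 6 positive and 16 negative differences and a median of -0.28, and 16 of the 22 were below miR-49. The median was 0.04 after rescaling on the miRNAs outside miR-35 to miR-42 and without fem-2(b245ts) replicate 1. It was -0.85 on the spike control and -0.55 without fem-2(b245ts) replicate 2. miR-237 and miR-251, the neighbours of miR-49, were at -0.45 and 0.58 (limma adjusted p = 0.625 and 0.814), and each of them exceeded the Buffer level on only 1 of the 3 arrays of fem-2(b245ts). On chromosome IV, 1 of 12 other tested miRNAs passed (miR-243, -1.89, a call lost without replicate 1 of either genotype), with 4 positive and 8 negative differences and a median of -0.42. That median was -0.09 after rescaling on the miRNAs outside miR-35 to miR-42 and -0.98 on the spike control, and leaving out fem-2(b245ts) replicate 1 gave -0.24, against -0.16 when fem-3(q20ts) replicate 2 was left out. The neighbours of miR-83 there, miR-228 and miR-246, were at -0.42 and -0.54 (limma adjusted p = 0.635 and 0.625), and miR-246 too exceeded the Buffer level on only 1 of the 3 arrays of fem-2(b245ts).

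Markers of other tissues were set beside these values, since the animals were extracted whole. The log2 difference was -0.75 for miR-60 (intestine), 0.17 for miR-1 (muscle), -0.41 for miR-124 (neurons) and -0.42 for miR-228 (glia), and none of these 4 passed in limma (adjusted p of 0.390 or more). The part of tissue composition in the levels of miR-49 and miR-83 was not tested.

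**Figure D4:**
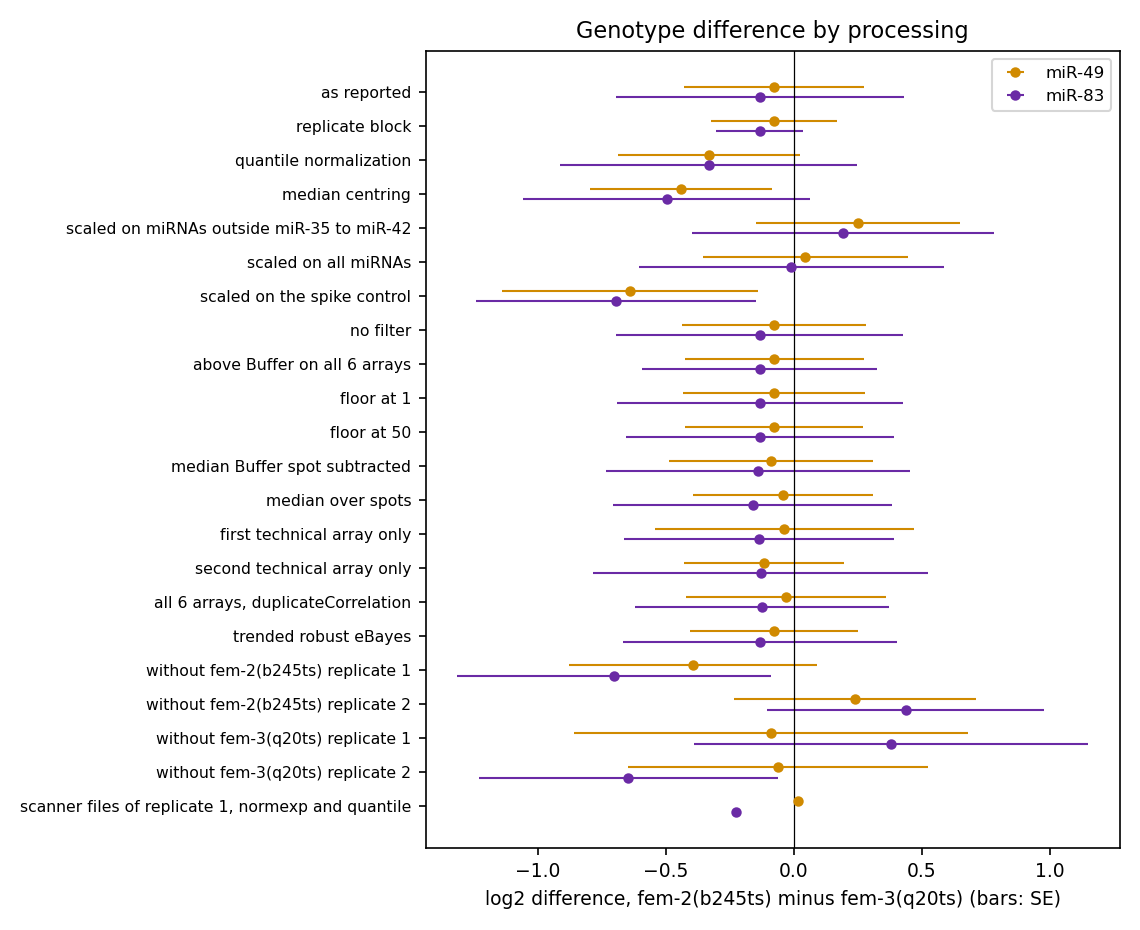
Log2 difference, fem-2(b245ts) minus fem-3(q20ts), of miR-49 and miR-83 as reported and under 21 other settings, with bars for the standard error (none for the scanner files, which hold 1 biological replicate a genotype). The values run from -0.64 to 0.25 for miR-49 and from -0.70 to 0.44 for miR-83, on both sides of 0.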

How the data were processed

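The members and lists were chosen with earlier results of these data known. Short RNAs were gel-purified, ligated to a Cy3 oligonucleotide and hybridised to spotted arrays, per the labels' protocols. The deposited value table holds spot intensity that the authors scaled on the total of each array. Scanner files of the 4 arrays of replicate 1, per the file headers, also give unscaled intensity, a deposited signal-to-noise score and the percent of saturated pixels. The sources used here give neither scanner, software nor probe sequences.

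Spot names came from the scanner files by spot number. Values below 12.8, the 10th percentile of positive intensities, were set to it, then log2-transformed and averaged over spots, then over technical arrays. A miRNA was tested if its mean exceeded 37.2, the 95th percentile of Buffer spots averaged over samples. Differences were tested two-sided with limma 3.58.1 (lmFit, eBayes, R 4.3.3), Benjamini-Hochberg adjusted over 94 miRNAs. The fit was tested on simulated data that held no shift shared by replicates, so that check does not cover the replicate shifts seen here. Replicate 1 arrays of both genotypes share a token in their descriptions, as do replicate 2 arrays, and what it marks is not stated. Across tested miRNAs the replicate shifts of the genotypes correlated (r = 0.711, miRNAs not being independent). The named miRNAs were the members, the 3 most alike in pattern to each, chromosomal neighbours, miR-34, list extremes and tissue markers. lsy-6, a neuronal marker, was not among the spots. Of 108 names, 100 matched the annotation. Likeness of sequence was planned for naming but not analysed here. The number of arrays limits the precision.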

Additional observations from a re-analysis of the deposited data

How the results depend on the processing

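Over 20 other fits, 0 of the 2 members passed the threshold, with limma adjusted p-values of 0.419 to 0.988 for miR-49 and 0.432 to 0.986 for miR-83. Directions were not stable. The log2 difference of miR-49 was positive after rescaling on the miRNAs outside miR-35 to miR-42 (0.25) or on all miRNAs (0.045) and when the replicate 1 scanner intensities were normexp-corrected and quantile-normalized (0.014, no test). That of miR-83 was positive on the miRNAs outside miR-35 to miR-42 (0.19). Leaving out 1 biological sample gave -0.39 to 0.24 for miR-49, -0.70 to 0.44 for miR-83 and -0.47 to 0.58 for the difference of the differences, which was also -0.00013 after quantile normalization. In these fits the genotype with 1 sample left was assumed to vary like the other. With the replicate block the differences of -0.08 and -0.13 stayed as they were, 9 miRNAs passed in place of 8, and no call of the members changed. The pairing rests on replicate numbers and a shared token. Of all miRNAs, 4 of 59 passed when a signal above the Buffer level on all 6 arrays was required, a filter that removes miRNAs absent from 1 genotype. With 2 samples a genotype, only large differences could pass.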
